A study of Mus musculus with 18 samples.

Results

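This account covers 10 genes of the cell's rapid stress and stimulus response, namely 7 immediate-early genes (Fos, Fosb, Egr1, Egr2, Atf3, Jun and Dusp1) and 3 heat-shock genes (Hspa1a, Hspa1b and Dnajb1), among 18193 genes measured in 18 arrays. The genes were chosen by their measured values on these same arrays, because their signal differed between replicates of a group, so their differences within groups are given as a description without a test. All 10 were on the array, as 15 features (probe sets) with a single gene symbol. Egr2, Jun and Dnajb1 had 2 features each, Hspa1b had 3 and the other 6 genes had 1. Unless stated otherwise the feature with the highest mean stands for its gene.

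The samples were 3 adjoining segments of the gut of C57Bl/6J embryos: antral stomach next to the pylorus, the pylorus itself and the duodenum, collected at embryonic days E14.5 and E16.5. The labels name no engineered allele and no treatment for any group. In all, 174 embryos of the earlier stage and 95 of the later were dissected, and tissue of each kind was pooled at random into 3 samples per group, so a replicate is a pool of many embryos and holds no value for any one animal. Each pool gave 6 µg of total RNA, from cells of all types in the segment, to 1 Affymetrix array. Values are log2 signals, on which a difference of 1 is 2-fold.

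Immediate-early genes are switched on within minutes of a stimulus without new protein synthesis, largely through kinase cascades that act on factors already bound at their promoters, among them serum response factor at CArG boxes and CREB at cyclic AMP response elements. Many encode transcription factors, such as the AP-1 subunits, and others encode proteins that end the signal. Heat-shock genes answer to unfolded protein through heat shock factor 1, which binds repeats of GAA and its complement TTC, and their products are chaperones.

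RefSeq promoter windows (assembly GRCm38.p6) were at hand for 9 of the 10 genes, all but Egr1. The core of a cyclic AMP response element also lay in Fosb, Atf3 and Dnajb1, which are not shown. The stretches below, in which TATAAA of Fos is marked as well, are examples of the elements named above in genes that held them. They read 5′ to 3′ on the gene's strand and end at the last base before the start site, except that the stretch of Egr2, from 1 of its 5 windows, runs from -76 to -47. Capitals mark TGACG or its complement (the core of a cyclic AMP response element) and TATAAA in Fos, TGACG and TGACGTCA in Dusp1, the CArG box and TGACG in Egr2, and GAANNTTC in Jun, Hspa1a and Hspa1b. They lie at chr12:85473740-85473889 on the plus strand (Fos), chr17:26508473-26508672 on the minus strand (Dusp1), chr10:67537793-67537822 on the plus strand (Egr2), chr4:95052223-95052372 on the minus strand (Jun), chr17:34972157-34972306 on the minus strand (Hspa1a) and chr17:34959239-34959388 on the minus strand (Hspa1b).
Fos: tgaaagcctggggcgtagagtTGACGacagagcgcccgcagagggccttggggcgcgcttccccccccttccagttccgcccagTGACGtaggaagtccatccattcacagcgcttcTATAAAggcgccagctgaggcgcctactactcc
Dusp1: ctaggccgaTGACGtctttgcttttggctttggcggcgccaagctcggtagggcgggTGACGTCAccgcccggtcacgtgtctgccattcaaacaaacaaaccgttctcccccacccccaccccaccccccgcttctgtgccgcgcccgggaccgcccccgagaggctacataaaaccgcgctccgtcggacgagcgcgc
Egr2: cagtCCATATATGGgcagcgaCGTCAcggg
Jun: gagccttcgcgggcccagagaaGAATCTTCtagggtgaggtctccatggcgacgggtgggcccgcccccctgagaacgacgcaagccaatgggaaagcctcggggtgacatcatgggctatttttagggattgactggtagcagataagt
Hspa1a: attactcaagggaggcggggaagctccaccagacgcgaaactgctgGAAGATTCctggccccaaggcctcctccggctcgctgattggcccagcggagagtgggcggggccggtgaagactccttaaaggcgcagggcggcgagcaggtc
Hspa1b: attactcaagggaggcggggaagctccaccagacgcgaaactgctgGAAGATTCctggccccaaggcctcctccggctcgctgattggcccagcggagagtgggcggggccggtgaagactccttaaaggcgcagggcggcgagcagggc

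In the 250 bases before the start site, searched on both strands, TGACG lay in the windows of 6 of the 9 genes (Fos, Fosb, Egr2, Atf3, Dusp1 and Dnajb1), against 19.8% of all 27025 genes with a window. It does not tell the programmes apart here, since 53.1% of 32 other immediate-early genes and 52.6% of 19 other heat-shock genes held it. The full palindrome TGACGTCA, which contains TGACG, lay in Dusp1 alone among the 9 and in 1.77% of all genes. A CArG box lay in Egr2 alone among the 9, in 9.38% of the other immediate-early genes, in 0 of the other heat-shock genes and in 1.62% of all genes. Bases farther upstream than 250 were not searched, nor was Egr1, so CArG boxes there would be missed. GAANNTTC lay in Jun, Hspa1a and Hspa1b, against 3.12% of the other immediate-early genes, 31.6% of the other heat-shock genes and 7.73% of all genes. TATAAA lay in Fos alone, against 14.3%. None of the 9 held TGANTCA, 1 form of the letters that AP-1 dimers bind, which 7.82% of all genes held. Since no other form was counted as an AP-1 site, this does not show that these promoters lack one. The promoters of Hspa1a and Hspa1b differed at 3 of 250 bases, 1 of them within the 150 bases shown. These letters are matches in a window and show no binding.

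Some arrays stood apart before any of these genes is considered. Replicates 1 and 2 of E14.5 duodenum differed by an SD of 0.079 over features above log2 8, against 0.177 to 0.497 in the other 17 replicate pairs, so they were averaged and counted as 1 sample, which leaves 17 samples and 2 in that group. Replicate 1 of E14.5 pylorus lay at least 1 log2 above both other pyloric pools in 278 genes and below both in 296, and its Sox2, a stomach transcription factor, read 8.66 against 10.77 and 10.65, close to the 8.86 and 8.98 of E14.5 duodenum. Its Barx1, Nkx2-5 and Gata3 lay between the other pyloric pools and duodenum, with Barx1 at 11.06 (12.08 and 12.03 in the other pyloric pools, 8.39 and 8.58 in duodenum) and Nkx2-5 at 9.31 (10.19 and 10.16, and at most 7.30 in duodenum). Stomach and duodenum were told apart by Cdx2, the intestinal transcription factor, which read 10.75 to 10.82 in E16.5 duodenum and 6.54 to 7.63 in E16.5 stomach. Cdx2 did not set pylorus apart from duodenum, with 10.86, 10.79 and 10.54 in E16.5 pylorus. Nkx2-5 did, at 8.75, 8.49 and 8.40 there against at most 7.16 in E16.5 duodenum and 7.36 in E16.5 stomach. The stomach segment is labelled antrum, yet Krt5, a keratin of squamous epithelium, read 9.99, 9.52 and 12.32 in its E16.5 pools against 6.28 to 7.08 in E16.5 pylorus. Among pools of E16.5 stomach, replicate 3 held more of the signal of stratified squamous epithelium, the lining of the forestomach, as given beside the results below. In bulk tissue, fewer cells of a type and less RNA per cell cannot be told apart.

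The response was carried by 2 of the 17 samples, replicate 3 of E16.5 stomach and replicate 1 of E16.5 duodenum. In each of them 9 of the 10 genes lay at least 1 log2 above both other pools of the group, all but Dnajb1, and all 10 had their highest value of the group there. Among the 9, Hspa1a and Hspa1b count as 1 signal, since probes for one can bind transcripts of the other. Over all genes, 0.583% lay that far above both others in the stomach pool, 0.445% in the duodenal pool and 0.154% in both. The mean of the 7 immediate-early genes was 11.57 in the stomach pool against 8.67 and 8.03 in replicates 1 and 2, and 11.60 in the duodenal pool against 8.59 and 8.90 in replicates 2 and 3. The mean of the 3 heat-shock genes was 11.68 against 9.52 and 9.22, and 11.29 against 9.36 and 9.33. This excess is mostly the signal of Hspa1a and Hspa1b, since Dnajb1 exceeded its companions' mean by only 0.71 and 0.375. No pool of E16.5 pylorus and no pool of E14.5 had any of the 10 genes 1 log2 above its companions.

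**Figure D1:**
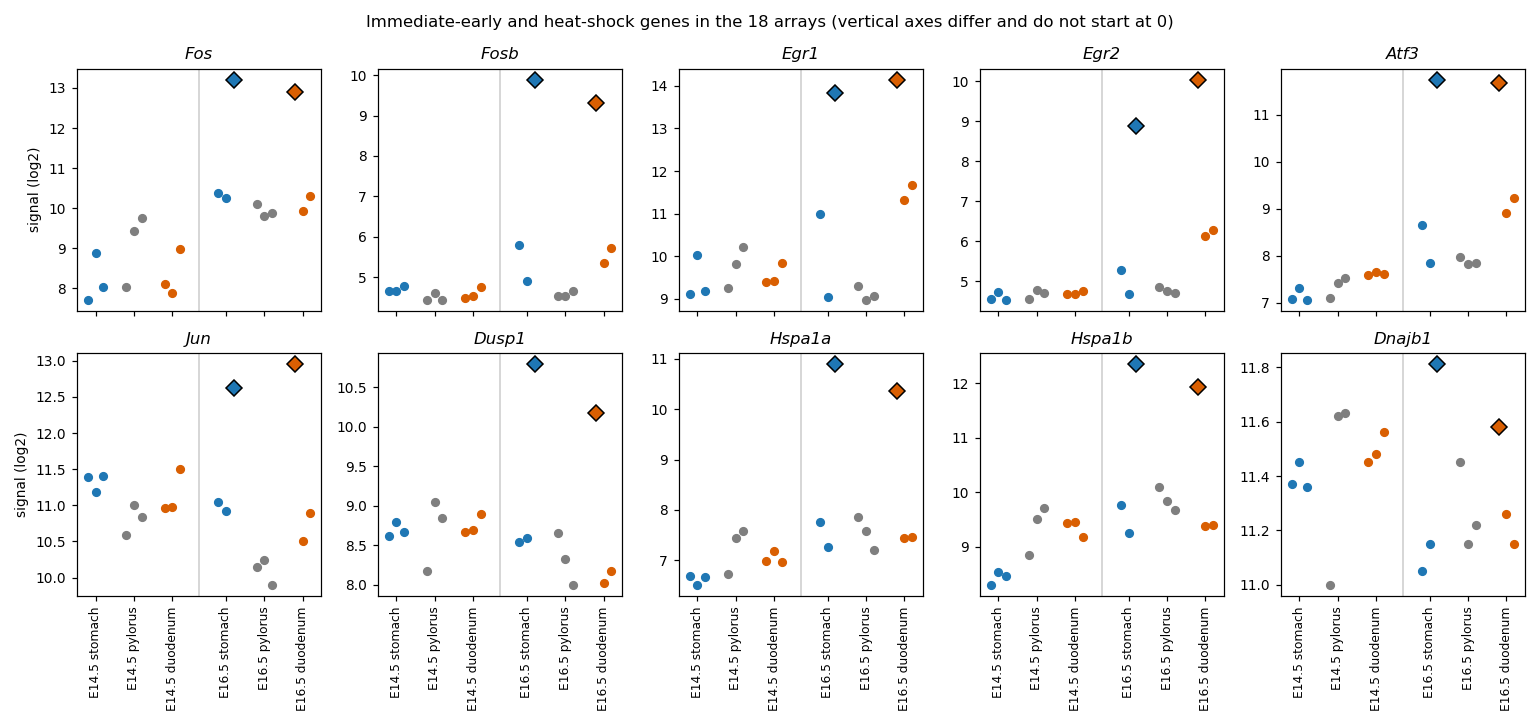
Signal (log2) of the 10 genes in each of the 18 arrays, 1 panel a gene, with groups along the horizontal axis and replicates 1 to 3 from left to right within a group. Blue is stomach, grey pylorus and orange duodenum, and the diamonds are replicate 3 of E16.5 stomach and replicate 1 of E16.5 duodenum, which stand above their companions in every panel, by the least for Dnajb1 (0.66 and 0.32 log2 above the next pool).

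Fos encodes the AP-1 subunit that pairs with Jun. It read 10.37, 10.25 and 13.21 in replicates 1 to 3 of E16.5 stomach, 10.10, 9.81 and 9.87 in E16.5 pylorus and 12.90, 9.93 and 10.30 in E16.5 duodenum. At E14.5 it read 7.71, 8.87 and 8.03 in stomach, 8.02, 9.42 and 9.76 in pylorus and 8.10, 7.89 and 8.99 in duodenum. The high stomach pool exceeded the mean of its companions 7.46-fold and the high duodenal pool 6.89-fold. All 9 arrays of E16.5 lay above all 9 of E14.5, if narrowly, since the lowest of the former was 9.81 and the highest of the latter 9.76.

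Fosb, a second AP-1 subunit of the Fos family, had the widest excess of the 10 genes in the stomach pool. It read 5.79, 4.91 and 9.89 in E16.5 stomach and 9.30, 5.36 and 5.73 in E16.5 duodenum, which is 23.3-fold and 13.5-fold above the companions' mean. In E16.5 pylorus it stayed at 4.53, 4.53 and 4.65, and at E14.5 all 9 arrays lay between 4.44 and 4.78. Those values are under the lower quartile of all features, which was 5.10 to 5.30 on the 18 arrays, so the folds of Fosb set a clear signal against one at the dim end of the array.

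Jun encodes the AP-1 partner of both Fos proteins and was bright in every pool. It read 11.04, 10.92 and 12.62 in E16.5 stomach, 10.15, 10.24 and 9.90 in E16.5 pylorus and 12.95, 10.50 and 10.89 in E16.5 duodenum. Here the duodenal pool had the larger excess, 4.77-fold against 3.12-fold, but the second feature of Jun reversed that order, with 2.38-fold and 3.26-fold. At E14.5 Jun read 11.39, 11.18 and 11.41 in stomach, 10.59, 11.01 and 10.84 in pylorus and 10.96, 10.98 and 11.51 in duodenum. By this feature the 3 pools of E16.5 pylorus were the lowest of the series. By the second feature the lowest was replicate 1 of E14.5 pylorus, at 9.82 against 9.88, 9.97 and 9.96 in E16.5 pylorus.

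Egr1, a zinc finger factor and a classic target of the ERK pathway, showed 3 levels at E16.5. It read 13.83 and 14.15 in the high stomach and duodenal pools, 11.33 and 11.66 in the other duodenal pools, and 9.29, 8.97 and 9.07 in pylorus. The other stomach pools differed from each other, with 10.99 in replicate 1 and 9.04 in replicate 2. The excess was 14.1-fold in stomach and 6.30-fold in duodenum, the smaller ratio going with the higher level of the duodenal companions. At E14.5 the gene read 9.12, 10.03 and 9.19 in stomach, 9.24, 9.82 and 10.21 in pylorus and 9.40, 9.41 and 9.83 in duodenum.

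Egr2, the paralog of Egr1, rose from the dim end of the array to 8.89 in the stomach pool and 10.04 in the duodenal pool. The other stomach pools of E16.5 read 5.29 and 4.67 and the other duodenal pools 6.12 and 6.29, so the excess was 15.03-fold and 14.3-fold. The pools of E16.5 pylorus read 4.84, 4.76 and 4.71 and all 9 arrays of E14.5 lay between 4.53 and 4.78. The second feature gave 15.4-fold and 13.4-fold, with the same pools in the same places.

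Atf3 encodes a stress-induced factor of the ATF family that represses many of its targets. It read 8.65, 7.85 and 11.75 in E16.5 stomach, 7.97, 7.83 and 7.84 in E16.5 pylorus and 11.67, 8.90 and 9.23 in E16.5 duodenum. The excess was 11.3-fold in the stomach pool and 6.08-fold in the duodenal pool. The E14.5 arrays lay between 7.06 and 7.66, all below the lowest E16.5 value of 7.83.

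Dusp1 encodes the phosphatase that switches off MAP kinases and so limits the response that induces it. It read 8.54, 8.59 and 10.79 in E16.5 stomach, 8.66, 8.33 and 8.0 in E16.5 pylorus and 10.17, 8.02 and 8.18 in E16.5 duodenum, an excess of 4.68-fold and 4.20-fold. Outside the 2 pools its E16.5 values lay between 8.0 and 8.66. The E14.5 arrays read 8.62, 8.79 and 8.67 in stomach, 8.17, 9.05 and 8.85 in pylorus and 8.67, 8.70 and 8.90 in duodenum.

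Hspa1a and Hspa1b are neighbouring, near-identical copies of the inducible HSP70 chaperone gene, and probes for one can bind transcripts of the other, so they count as 1 signal rather than 2. Hspa1a read 7.75, 7.27 and 10.89 in E16.5 stomach, 7.85, 7.58 and 7.21 in E16.5 pylorus and 10.37, 7.44 and 7.46 in E16.5 duodenum, an excess of 10.4-fold and 7.57-fold. Hspa1b read 9.76, 9.25 and 12.34 in E16.5 stomach, 10.10, 9.84 and 9.67 in E16.5 pylorus and 11.93, 9.37 and 9.39 in E16.5 duodenum. Its 3 features gave an excess of 7.14-fold to 9.88-fold in the stomach pool and 5.28-fold to 5.86-fold in the duodenal pool. At E14.5 both copies were lowest in stomach: Hspa1a read 6.51 to 6.68 there, 6.73, 7.45 and 7.58 in pylorus, and 6.99, 7.18 and 6.96 in duodenum. Hspa1b then read 8.30, 8.54 and 8.47 in stomach, 8.85, 9.51 and 9.71 in pylorus and 9.44, 9.46 and 9.18 in duodenum.

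Dnajb1, the HSP40 co-chaperone that hands clients to HSP70, was the only 1 of the 10 outside the mark of 1 log2. It lay 0.66 above the next pool in stomach and 0.32 in duodenum. Closest inside the mark were Jun, at 1.58 in stomach, and Dusp1, at 1.99 in duodenum. The second feature of Jun lay closer still, at 1.54 and 1.18. Dnajb1 read 11.05, 11.15 and 11.81 in E16.5 stomach and 11.58, 11.26 and 11.15 in E16.5 duodenum, an excess of 1.64-fold and 1.30-fold. In E16.5 pylorus it read 11.45, 11.15 and 11.22. E14.5 pools gave 11.37, 11.45 and 11.36 in stomach, 11, 11.62 and 11.63 in pylorus and 11.45, 11.48 and 11.56 in duodenum, so replicates 2 and 3 of E14.5 pylorus were above the high duodenal pool. Its second feature agreed in stomach (10.04, 10.34 and 10.81) but not in duodenum, where replicate 1 was the lowest of the 3 at 10.04 against 10.51 and 10.29.

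The spread within groups describes the same 2 pools again and, since the genes were chosen on it, supports nothing further. A group raised evenly would have a small range, so a small range does not show that the response was absent. A range of 1 log2 or more was reached by 9 of the 10 genes in E16.5 stomach, where 2.52% of all genes had one, and by 9 in E16.5 duodenum, where 3.29% had one. It was reached by 0 of the 10 in E16.5 pylorus (1.1% of all genes) and 0 in E14.5 duodenum (0.649%). At E14.5 only Fos reached it, with 1.16 in stomach (0.418% of all genes) and 1.74 in pylorus (4.71%). The range of the immediate-early mean was 3.54 in E16.5 stomach and 3.003 in E16.5 duodenum, and 0.21 to 0.60 in the other 4 groups.

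Smaller differences ran through the other 15 samples, and they did not involve all 10 genes. Replicate 1 of E16.5 stomach exceeded replicate 2 by 1.95 log2 in Egr1, 0.88 in Fosb, 0.80 in Atf3 and 0.62 in Egr2, but by only 0.12 in Fos, 0.12 in Jun and -0.05 in Dusp1. In E16.5 duodenum, replicates 2 and 3 held Egr1, Egr2, Atf3, Fosb and Jun above every pool of E16.5 pylorus. Their Dusp1, Hspa1a, Hspa1b and Dnajb1 lay within or below the range of E16.5 pylorus. Fos, at 9.93 and 10.30, was within that range in replicate 2 and above it in replicate 3. The second feature of Dnajb1, at 10.51 and 10.29, was above it in replicate 2 alone. At E14.5, Fos and Egr1 rose and fell together: both were highest in replicate 2 of stomach and replicate 3 of duodenum, and both were higher in replicates 2 and 3 of pylorus than in replicate 1. The same pyloric replicates 2 and 3 were higher in Hspa1a, Hspa1b and Dnajb1. Replicate 1 of that group is the pool that stood apart in 278 and 296 genes, and what part that has in these values was not tested.

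Correlations of the genes' deviations from their group means describe which of them go together. The samples share the array platform, and the 2 high pools dominate over all 17 samples, where the immediate-early mean and the heat-shock mean gave Pearson r = 0.98 and Spearman rho = 0.89. Over the 15 samples without those 2 pools, r was 0.73 and rho 0.62. Among these, the heat-shock mean varied most in E14.5 pylorus, by 0.78. Replicate 1 of that group, the pool that stood apart, read 8.86 against 9.53 and 9.64 in replicates 2 and 3. Its immediate-early mean was 7.44 against 8.02 and 8.05. That pool weighs heavily in the values of the heat-shock genes below, and the correlations without it were not tested. Of the 3 genes in the heat-shock mean, Hspa1a and Hspa1b count as 1 signal. Among the 15, Egr1, Egr2 and Atf3 formed the tightest set, with r of 0.94 to 0.95 and rho of 0.87 to 0.90 for each pair. Stomach and duodenum of E16.5 and duodenum of E14.5 then held 2 samples each, whose deviations from their mean mirror each other. The pair of E16.5 stomach differed most in these genes, by 1.95 in Egr1, 0.62 in Egr2 and 0.80 in Atf3. That 1 difference enters as 2 points and weighs heavily in the values of this set. Fosb came next to them, with r of 0.75 to 0.85 and rho of 0.57 to 0.70. Fos, Dusp1 and Dnajb1 gave r of 0.75 to 0.86 among themselves but rho of 0.56 to 0.82. By rank, Fos was as close to Egr1 (rho = 0.81, r = 0.62) as to Dusp1 (rho = 0.82, r = 0.75), so these genes did not separate into distinct sets. Hspa1a and Hspa1b gave r = 0.92 and rho = 0.83 with each other, and with Dusp1 and Dnajb1 r of 0.71 to 0.78 but rho of only 0.45 to 0.53. Egr1 and Dusp1 gave r = 0.37 and rho = 0.54. The lowest pair was Fosb with Dnajb1, at r = -0.07 and rho = -0.19. Hspa1b gave r = 0.77 and rho = 0.80 with Atf3. Jun reached r = 0.63 and rho = 0.63 with Dusp1. The pairs were grouped after their values were seen. Many of these genes differed by less than 1 log2 among the 15 samples, and Fosb and Egr2 lay near the dim end in most of them.

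**Figure D2:**
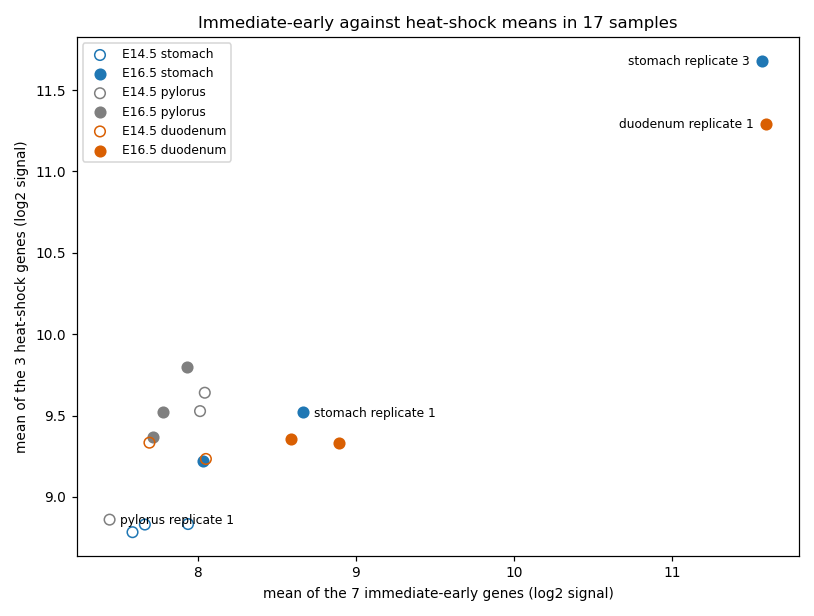
Mean of the 7 immediate-early genes (horizontal axis, log2 signal) against the mean of the 3 heat-shock genes (vertical axis, log2 signal) in 17 samples, open at E14.5 and filled at E16.5. The 2 high pools lie alone at the upper right, at 11.57 and 11.60 on the horizontal axis. The other duodenal pools of E16.5 and replicate 1 of E16.5 stomach lie to the right of the rest, with heat-shock means of 9.33 to 9.52 against 9.37 to 9.80 in E16.5 pylorus.

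Some, but not most, other genes of the immediate-early programme passed the mark in the same 2 pools. Their list was drawn up with earlier results of these data known, so the counts are a description. Of 40 further immediate-early genes, 12 lay at least 1 log2 above both other pools in the stomach pool, 14 in the duodenal pool and 8 in both, against 106, 81 and 28 of 18193 genes. The median excess of the 40 was 0.60 in the stomach pool and 0.65 in the duodenal pool, against 0.01 and -0.04 over all genes. Nr4a1, an orphan nuclear receptor, was 10.2-fold and 5.28-fold above its companions' mean. Ccn1, a secreted matrix protein, was 8.63-fold and 8.17-fold above it, Ptgs2, the inducible cyclooxygenase, 6.19-fold and 5.58-fold, and Junb, another AP-1 subunit, 3.63-fold and 5.30-fold. Egr3, Ier5 and Sik1, all known as immediate-early genes, showed an excess of 0.20 log2 or less in both pools. These and the genes past the mark in 1 pool alone were picked out after their values were seen. Ier3, Klf2, Ccn2 and Gadd45g passed it in the stomach pool alone and Ier2, Fosl1, Btg2, Srf, Plk2 and Plk3 in the duodenal pool alone.

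As a list, the other heat-shock genes showed little excess in either pool. Of 24 listed, 22 were measured, and 1 lay 1 log2 above both companions in the stomach pool, 1 in the duodenal pool and 0 in both, with a median excess of 0.03 and 0.07. The one in stomach was Hspb1, a small heat-shock protein, which was higher by 1.12 in the stomach pool and lower in the duodenal pool by -0.42. The one in duodenum was Hsph1, an HSP110 chaperone, at 1.05 in the duodenal pool and 0.14 in the stomach pool. Bag3, a co-chaperone, gave 0.35 and 0.91, and Hsf2, a heat shock factor, 0.18 and 0.04. Dnajb4 and Cryab, picked after their values were seen, fell just short of the mark in stomach, at 0.94 and 0.84 above the next pool. Over their companions' mean, Dnajb4 gave 1.005 in the stomach pool and 0.16 in the duodenal pool, and Cryab 0.845 and -0.26. The abundant chaperones Hspa8 (0.03 and 0.06) and Hsp90aa1 (0.03 and 0.26) lay close to their companions. Past the mark in both pools, the heat-shock genes were the HSP70 pair alone, among the 3 chosen and the 22 others.

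**Figure D3:**
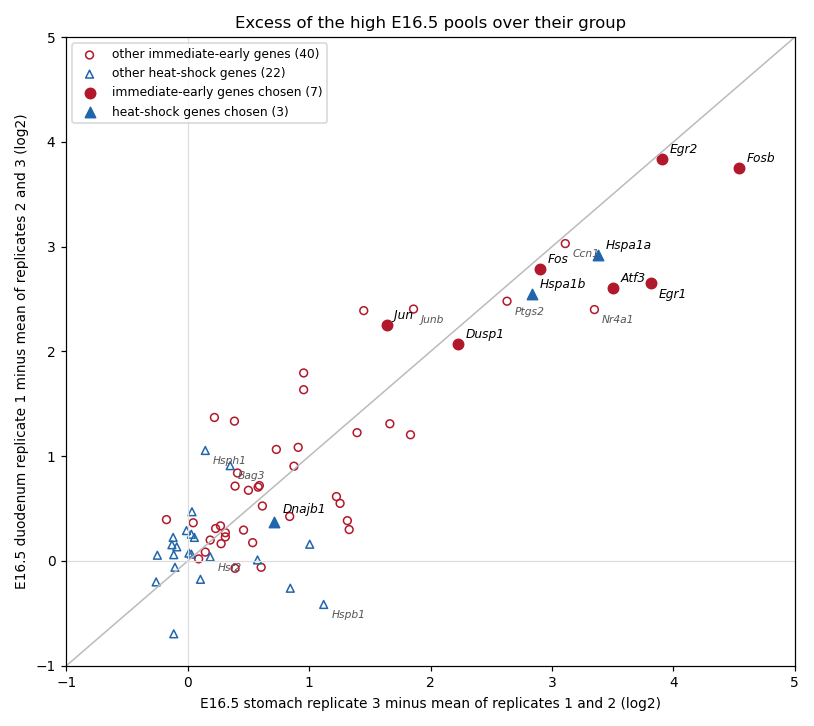
Excess of replicate 3 of E16.5 stomach over the mean of replicates 1 and 2 (horizontal axis, log2) against that of replicate 1 of E16.5 duodenum over replicates 2 and 3 (vertical axis, log2), with the diagonal of equal excess. Filled symbols are the 10 genes, open circles 40 other immediate-early genes and open triangles 22 other heat-shock genes. Circles spread from near 0 to Nr4a1, Ccn1 and Ptgs2 among the chosen genes, while open triangles stay at or below 1.12 on both axes.

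Genes past the mark in both pools numbered 28, which is 26.4% of the genes past it in the stomach pool and 34.6% of those in the duodenal pool, and 9 of them are among the 10 chosen. Of the other 19, 8 are on the list of further immediate-early genes. The remaining 11, named here because they passed, are Adamts1, Apold1, Chac1, Csrnp1, Cxcl1, Cxcl2, Ereg, Gem, Hbegf, Ifrd1 and Ppp1r15a. They include the chemokine Cxcl2 (9.55-fold and 5.05-fold), the endothelial early-response gene Apold1 (7.04-fold and 2.35-fold) and the growth factors Hbegf (3.32-fold and 3.58-fold) and Ereg (2.03-fold and 4.58-fold).

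The genes whose deviations over the 17 samples were most like the immediate-early mean, among 11408 genes with a mean of at least log2 7, were Ppp1r15a (r = 0.99), Csrnp1 (0.98), Nr4a1 (0.98), Ccn1 (0.98), Klf6 (0.97), Adamts1 (0.96), Junb (0.96), Hbegf (0.96), Zfp36 (0.95) and Dusp5 (0.95). Those most like the heat-shock mean were Adamts1 (r = 0.98), Csrnp1 (0.98), Ppp1r15a (0.98), Nr4a1 (0.96), Cebpd (0.96), Klf6 (0.96), Ifrd1 (0.96), Ccn1 (0.96), Itprip (0.95) and Spry1 (0.95). Of 14 distinct genes, 6 stood on both lists, and none of the 10 most like the heat-shock mean is a chaperone gene. Since the 2 high pools dominate both means, the order among these genes carries little weight.

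Other stress programmes were set beside these lists. Of 16 genes of endoplasmic reticulum stress, 1 passed in both pools, the glutathione-degrading enzyme Chac1 (1.21 and 1.08). Ddit3 exceeded its companions' mean by 0.365 in the stomach pool and 1.02 in the duodenal pool, where it lay 0.81 above the next pool. Pdia4 gave -0.625 and 0.67. Sdf2l1, an endoplasmic reticulum chaperone cofactor, read 8.36, 10.32 and 8.12 in E16.5 stomach, where replicate 2 stood apart, and 9.68, 9.61 and 9.21 in E16.5 duodenum. Of 14 NF-kB and cytokine genes, 3 passed in the stomach pool and 2 in the duodenal pool, where Cxcl2 gave 3.25 and 2.33, Cxcl1 1.47 and 1.57, and the adhesion molecule Icam1 1.25 and 0.38. None of 15 genes of hypoxia and glycolysis, 10 of oxidative and metal stress and 9 p53 targets passed in either pool. The range of their median excess was -0.10 to 0.01.

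Markers of other cells differed in the same pools. Endothelial markers were higher in both: the mean of 10 was 8.31 in the stomach pool against 7.62 and 7.73, and 7.95 in the duodenal pool against 7.46 and 7.69, with a median excess of 0.55 and 0.40. Among them Cldn5, a tight junction protein, was higher by 1.495 and 0.88. In the stomach pool, 7 of 11 measured markers of stratified squamous epithelium passed the mark, a list drawn up after the values were seen, and the list's mean was 10.33 against 9.01 and 8.83. Krt5, a basal keratin, was higher by 2.57 and Trp63, a basal cell factor, by 2.69. In the duodenal pool 0 of the 11 passed, and the list's mean was 6.15 against 6.25 and 6.17. Smooth muscle gave 2 of 16 markers past the mark in the stomach pool (Myh11 by 1.21 and Hspb6 by 1.22) and 0 in the duodenal pool, with a median excess of 0.72 and -0.33. Of 8 liver markers, 5 were at least 1 log2 below both companions in the stomach pool, such as Alb by -2.81, and 0 in the duodenal pool. Of 8 red blood cell markers, 3 were that far below in the stomach pool, and 1, the embryonic globin Hbb-y, was above in the duodenal pool. Of 8 pancreatic markers, 3 were below in the duodenal pool, such as Cpa1 by -2.03. The part of these markers in the response was not tested.

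**Figure D4:**
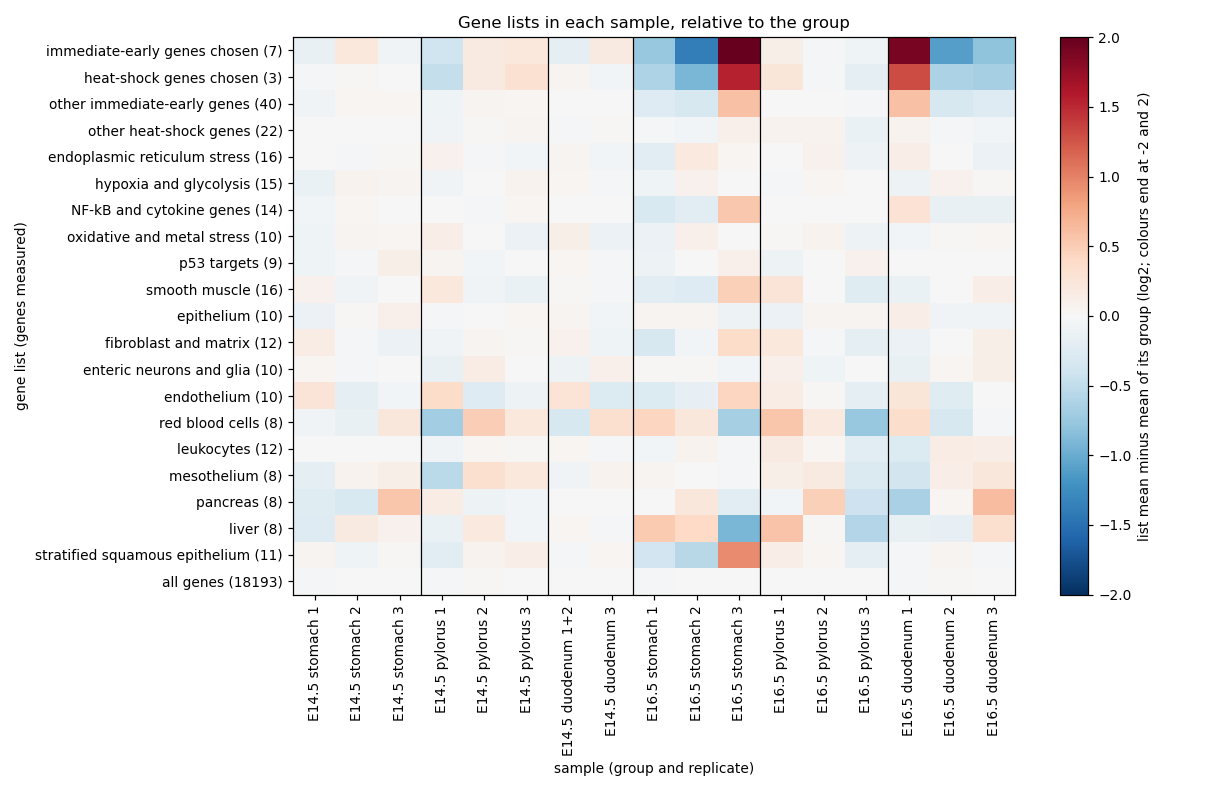
Mean of each gene list minus the mean of its group (colour, log2, ending at -2 and 2) for 17 samples along the horizontal axis, with the number of genes measured per list in brackets on the vertical axis. Red in both high E16.5 pools is seen for the 2 lists of chosen genes, the 40 other immediate-early genes, the 14 NF-kB and cytokine genes and, more faintly, the 10 endothelial markers, while the squamous and smooth muscle lists are red in the stomach pool and near white or pale blue in the duodenal pool.

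RNA integrity can be read in part from the difference between 3′ and 5′ features of control transcripts, which grows as RNA is broken. For Actb it was 0.61, 0.32 and 0.71 log2 in replicates 1 to 3 of E16.5 stomach and 1.19, 0.57 and 0.80 in E16.5 duodenum. Both high pools had the largest value of their group, and the duodenal pool had the largest of all 18 arrays. For Gapdh it was 0.20, -0.09 and 0.21, and 0.43, -0.08 and 0.05, where the high duodenal pool again had the largest value of all 18 arrays. For Tfrc the stomach pool lay between its companions (2.82, 2.22 and 2.55) and the duodenal pool was highest (2.65, 2.51 and 2.32). For Pcx it was 1.82, 1.70 and 2.35 in stomach, where the high pool had the largest value of all 18 arrays, and 1.96, 1.95 and 2.04 in duodenum, where replicate 3 was highest. Whether RNA integrity has a part in the response was not tested.

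The comparisons between groups were fitted with limma over all 18193 genes, with Benjamini-Hochberg adjusted p under 0.05 as the mark of a call. Because the genes were chosen on these values, the calls describe the groups and support nothing further. From E14.5 to E16.5, 4 of the 10 genes were called higher in duodenum, where 61.4% of all genes were called in either direction: Fos by 2.55 ± 0.88 (log2, SE; adjusted p = 0.021), Egr1 by 2.76 ± 0.99 (adjusted p = 0.025), Egr2 by 2.77 ± 1.07 (adjusted p = 0.035) and Atf3 by 2.31 ± 0.86 (adjusted p = 0.030). In stomach 3 were called higher, against 40.9% of all genes: Fos by 3.07 ± 0.79 (adjusted p = 0.0063), Atf3 by 2.27 ± 0.77 (adjusted p = 0.029) and Hspa1b by 2.01 ± 0.68 (adjusted p = 0.029). In pylorus limma called 0, against 40.2% of all genes, and 0 of the 10 had an unadjusted p under 0.05. In each of the 3 tissues the called share of the 10 genes was below that of all genes.

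Without replicate 1 of E16.5 duodenum, 0 of the 10 were called for age in duodenum. Leaving out replicate 1 of E14.5 duodenum, the averaged sample, also gave 0, and leaving out replicate 3 gave 1. In stomach, 1 was called without replicate 3 of E16.5 or without any 1 of the E14.5 pools, 6 without replicate 2 of E16.5 and 5 without replicate 1 of E16.5 duodenum. Fos kept its call in stomach in all 25 alternatives that were run. The loss of calls in duodenum without replicate 1 of E16.5 is not a loss of the differences. Fos, Egr1, Egr2 and Atf3 were then still higher at E16.5 by 1.62, 1.88, 1.49 and 1.445 log2, while the high stomach pool stayed in the shared spread. With both high pools left out, a choice made after their values were seen, 7 were called in duodenum, 5 higher and 2 lower, against 60.6% of all genes.

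Among tissues at E16.5, 4 genes were called between pylorus and duodenum, all lower in pylorus, against 37.0% of all genes: Egr1 by -3.27 ± 0.89 (adjusted p = 0.0095), Egr2 by -2.71 ± 0.95 (adjusted p = 0.036), Atf3 by -2.05 ± 0.77 (adjusted p = 0.048) and Jun by -1.35 ± 0.50 (adjusted p = 0.047). The share of the 10 genes called is near that of all genes. Egr1 kept its call in all 25 alternatives, while Jun lost it in 16 and Atf3 in 15. The count was 1 without replicate 1 of E16.5 duodenum or without any 1 pool of E16.5 pylorus, 2 without any pool of E14.5 stomach, either sample of E14.5 duodenum, replicate 2 or 3 of E14.5 pylorus, or replicate 1 of E16.5 stomach. With both high pools left out, a choice made after their values were seen, the differences were -2.39 in Egr1, -1.44 in Egr2, -1.19 in Atf3 and -0.60 in Jun, each still lower in pylorus.

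Between duodenum and stomach at E16.5, where the 2 tissues each held 1 high pool, limma called 0 of the 10, against 46.1% of all genes, and 0 had an unadjusted p under 0.05. Without replicate 3 of E16.5 stomach, 3 were called. Between pylorus and stomach at E16.5 limma called 0, against 21.4% of all genes, with 3 at an unadjusted p under 0.05. There 4 were called without replicate 2 of E16.5 stomach and 1 without replicate 1 or 2 of E16.5 duodenum. At E14.5 limma called 0 of the 10, and 0 had an unadjusted p under 0.05, between duodenum and stomach (6.29% of all genes called), pylorus and stomach (3.57%) and pylorus and duodenum (0.846%). The change of a tissue difference with age was called for 0 of the 10 between duodenum and stomach (27.5% of all genes), pylorus and stomach (2.49%) and pylorus and duodenum (19.6%), with 0, 0 and 1 at an unadjusted p under 0.05. The wide spread within E16.5 stomach and duodenum enters every one of these tests.

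The further genes of both programmes can be set beside these calls. From E14.5 to E16.5, 18 of the 40 other immediate-early genes were called higher and 1 lower in stomach, 14 higher and 5 lower in duodenum, and 7 higher and 0 lower in pylorus, with median differences of 0.61, 0.46 and 0.27 against 0.04, 0.09 and 0.07 over all genes. The called shares of the list were 47.5%, 47.5% and 17.5% against 40.9%, 61.4% and 40.2% of all genes, so in duodenum and pylorus the list's share was below that of all genes. Calls among the other heat-shock genes were mostly lower, with 5 higher and 10 lower of 22 in stomach, 0 higher and 13 lower in duodenum and 2 higher and 11 lower in pylorus, and medians of -0.24, -0.56 and -0.28. Their called shares were 68.2%, 59.1% and 59.1%, of which that in duodenum is near the 61.4% of all genes. Over all genes 3417 were higher and 4016 lower in stomach, 5688 and 5485 in duodenum and 3866 and 3446 in pylorus.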

How the data were processed

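RNA of 18 pools was measured on Affymetrix arrays, 3 pools for each of 6 groups of tissue and age. As deposited, each value is the log2 intensity of a probe set, made by the authors with GCOS and RMA, as the submitters' processing notes name them. Their versions, and whether RMA was run once over the 18 arrays, are not given in the sources used. No depth applies to arrays, and the number of pools limits the precision. The table holds 45101 probe sets, of which 34945 carry 1 gene symbol in the array annotation, 932 several and 9160 none, beside 64 controls. Only those with 1 symbol were used, and no further scaling was applied.

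The first pair of E14.5 duodenal arrays was averaged. The fit used limma 3.58.1 (R 4.3.3) on 17 samples with 6 group means, 11 residual degrees of freedom and 3.95 from the prior. A gene was called at a Benjamini-Hochberg adjusted p under 0.05. The script was tested on simulated data. The labels call the samples biological replicates without naming litters, so p-values measure the spread between pools. The genes and the lists were chosen with earlier results of these data known.

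Genes named are the 10 members with all probe sets, up to 4 genes of each list with the largest range within a group, and the 10 most correlated with each mean. Others are said to be picked after their values were seen. Lists beside those in the text held epithelium, fibroblast and matrix, enteric neurons and glia, leukocytes and mesothelium. Alternatives were averaged probe sets, separate arrays, quantile normalization, median centring, a filter on dim genes, fits on the compared groups alone, a replicate block and leaving out samples. Motifs were searched in RefSeq windows of assembly GRCm38.p6 with Python 3.11.15. The figures used matplotlib 3.10.9.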

Additional observations from a re-analysis of the deposited data

How the results depend on the processing

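The 11 calls among the 10 genes kept their direction in all alternatives run, but 48 repeats that left out a sample and 11 under other settings lost the call, so the number of genes called was not stable. Leaving out each sample in turn gave 0 to 3 called for duodenum minus stomach at E16.5, 0 to 4 for pylorus minus stomach, 1 to 5 for pylorus minus duodenum, and for age 1 to 6 in stomach and 0 to 5 in duodenum. With only the groups compared in the fit, 3 were called for duodenum minus stomach at E14.5, 1 for pylorus minus stomach at E16.5 and 2 for age in pylorus. Pylorus minus stomach at E16.5 gave 1 with 18 separate arrays, with quantile normalization and with dim genes left out, and pylorus minus duodenum gave 2 with averaged probe sets.

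With the replicate number as a block, 2 were called for pylorus minus duodenum at E16.5, 1 for age in stomach and 3 for age in duodenum. Over 16 pairs of samples with the same number at the same age, deviations from the group means correlated at -0.14 to 0.41, above 0.1 in 6 pairs. These include the 3 pairs of replicate 2 at E16.5 (0.256, 0.345 and 0.297) and both pairs of pylorus with duodenum at E14.5 (0.411 and 0.146). Since not every pair was above 0.1, the number was not taken to pair the samples.

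With both high E16.5 pools left out, chosen after their values were seen, 1 gene was called for duodenum minus stomach and 1 for pylorus minus stomach at E14.5 (7.73% and 4.55% of all genes in that fit). At E16.5 3 were called higher for duodenum minus stomach (43.5%), 2 lower for pylorus minus stomach (17.9%) and 5 lower for pylorus minus duodenum (37.7%). For age, 5 were called higher in stomach (38.9%), 1 higher and 1 lower (Jun) in pylorus (43.6%), and 5 higher and 2 lower (Jun and Dusp1) in duodenum (60.6%), or 5, 2 and 7 in all. That choice removes the widest values and so narrows the spread by construction. The range of the immediate-early mean then fell to 0.63 in E16.5 stomach and 0.30 in E16.5 duodenum, that of the heat-shock mean to 0.30 and 0.023, and the genes with a range of 1 log2 or more to 180 and 48.

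Leaving out each pool in turn gave ranges of the immediate-early mean of 0.079 to 0.35 and 0.03 to 0.60 in E14.5 stomach and pylorus, and 0.63 to 3.54, 0.061 to 0.21 and 0.30 to 3.003 in E16.5 stomach, pylorus and duodenum. For the heat-shock mean these were 0.003 to 0.05, 0.11 to 0.78, 0.30 to 2.46, 0.16 to 0.43 and 0.023 to 1.96. With averaged probe sets, the heat-shock range in E14.5 stomach was 0.089. Fosb and Egr2 lie near the dim end of the array in most pools, which limits their folds there.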

Other observations

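Cell type lists not described above also differed between the high pools and their companions, and are given as values. Fibroblast and matrix markers had a median excess of 0.49 in replicate 3 of E16.5 stomach and -0.06 in replicate 1 of E16.5 duodenum, with Col1a1 at 0.98 and 0.08. Leukocyte markers had 0.05 and -0.45, with the macrophage receptor Csf1r at 0.20 and -0.91. Mesothelial markers had 0.02 and -0.54, enteric neurons and glia -0.11 and -0.27, and epithelium -0.21 and 0.15. Of these lists 0 genes lay at least 1 log2 above both companions in either pool.

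In E16.5 duodenum, 127 genes lay at least 1 log2 below both other pools in the high pool and 81 above, whereas in E16.5 stomach 17 lay below and 106 above. Among the genes above in the duodenal pool alone, named after their values were seen, were the transcription factor gene Srf (1.07) and the stress kinase genes Plk2 (1.37) and Plk3 (1.33).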
